A study of Mus musculus with 18 samples.

Results

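Small RNA eluted from an MRTF-A 3'UTR bait was compared between differentiated and undifferentiated C2C12 cells in 6 libraries. They are all the libraries of the series made with that bait, 3 of each state, out of 18 libraries in the series, and were taken by the state and bait in their labels. Of 2042 miRNA names in the deposited table, 941 had a read in at least 1 of these libraries, 225 had a read in each, and 187 had enough reads to be tested. C2C12 is an established mouse myoblast line, so the results describe 1 cell line. Both states are of the unmodified line, with no transgene, deletion or drug named in the labels. Undifferentiated cells were kept in 10% fetal calf serum, and differentiated cells had 7 days of myogenic differentiation in 2% horse serum. The series also holds 6 input libraries, made from the lysates, and 6 eluates of an MS2 control bait, which are used here only as a background for the change in the MRTF-A eluates.

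A miRNA guides an Argonaute protein to messenger RNAs, mainly through bases 2 to 8 at its 5′ end, the seed, which pairs with sites in 3'UTRs. In miTRAP (trapping of miRNAs by affinity purification) an RNA bait tagged with MS2 hairpins is held on a resin and incubated with cell lysate, and the small RNA that stays with it is eluted and sequenced. MRTF-A, which the mouse gene Mrtfa encodes, is a myocardin-related coactivator that works with serum response factor and ties muscle and cytoskeletal genes to actin dynamics. When serum is lowered, C2C12 myoblasts leave the cell cycle, fuse into myotubes and switch on the muscle miRNAs (myomiRs) of the miR-1/miR-206 and miR-133 families. An eluate therefore reflects both which miRNAs the lysate offers and which are retained, and the comparison asks how the set of miRNAs on this 3'UTR differs between the states.

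The miRNAs on which the results turn are shown with their mature sequences (RefSeq, GRCm38.p6), 5′ to 3′, with the seed in capitals. The first set holds miRNAs that rose in the eluate with differentiation, among them a myomiR of each family, and miR-181d-5p, which was not called and has the seed of miR-181a-5p, which rose.
miR-206-3p: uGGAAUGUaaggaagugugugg
miR-133b-3p: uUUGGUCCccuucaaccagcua
miR-128-3p: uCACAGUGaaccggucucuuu
miR-1843b-5p: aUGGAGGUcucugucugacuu
miR-872-5p: aAGGUUACuuguuaguucagg
miR-181a-5p: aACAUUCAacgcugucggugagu
miR-181d-5p: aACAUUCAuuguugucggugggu
The second set holds miRNAs that fell, and miR-34a-5p, which has the seed of miR-449c-5p and was not called.
miR-31-5p: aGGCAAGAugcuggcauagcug
miR-7649-3p: uCUCUCCAgcacugcuuguuucu
miR-6999-3p: cUUCAGCUguccuccuuucugu
miR-5128: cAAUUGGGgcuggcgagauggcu
miR-25-5p: aGGCGGAGacuugggcaauugc
miR-449c-5p: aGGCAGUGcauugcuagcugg
miR-34a-5p: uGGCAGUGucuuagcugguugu
The third set holds let-7 strands, whose 5p and 3p arms have different seeds, among them both arms of let-7b, which were called in opposite ways.
let-7a-5p: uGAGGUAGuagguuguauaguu
let-7b-5p: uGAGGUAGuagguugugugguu
let-7b-3p: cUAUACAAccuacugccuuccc
let-7d-3p: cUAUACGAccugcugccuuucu
Sequences matched 159 of the 187 tested names (85%) and gave 124 distinct seeds. miR-1a-3p, miR-133a-3p, miR-1b-5p, miR-486-5p, miR-3107-5p, miR-378a-3p, miR-34c-5p, miR-140-5p, miR-669l-5p, miR-466a-3p and miR-5099 are given by name. miR-206-3p and miR-133b-3p lie on chromosome 1 at chr1:20679055-20679076 and chr1:20682834-20682855 (plus strand, GRCm38.p6), in exons of the noncoding gene Gm28653. miR-31-5p lies at chr4:88910614-88910635 (minus strand) in an exon of the noncoding gene AL805899.1, and miR-25-5p at chr5:138165370-138165391 (minus strand) within Mcm7. The annotation places miR-872-5p in an intron of Ift74, at chr4:94665167-94665187 (plus strand), and miR-449c-5p in an intron of Cdc20b, at chr13:113036008-113036028 (plus strand).

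The 6 libraries held 1865493 whole reads, 306483 to 544504 in the differentiated and 107165 to 352674 in the undifferentiated eluates. Values are the authors' normalised signal, a read count scaled to an effective library size, in which 1 read was worth 3.33 to 5.14 units in differentiated and 8.31 to 15.3 units in undifferentiated libraries. Libraries are called A, B and C after the order of their columns, and values are given in that order. Differences are on the log2(signal + 10) scale, differentiated minus undifferentiated, with a standard error, and this scale understates changes of low miRNAs. Each adjusted p is from limma over all names tested, and a difference was called at an adjusted p under 0.05. Separate cultures are not named for the libraries of a group, and p-values then measure only the spread between libraries, which may be technical. Across the 187 names, log2 signals correlated at 0.958 to 0.986 between differentiated libraries, 0.919 to 0.952 between undifferentiated libraries and 0.649 to 0.745 between states (Pearson). Fewer cells with a miRNA and less of it per cell cannot be told apart in such pooled lysates.

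The leading miRNA of the eluate differed between the states. In undifferentiated cells miR-31-5p, known from muscle stem cells, where it holds back Myf5 translation, took 52.8%, 66.5% and 61.5% of the reads of libraries A, B and C. In differentiated cells it took 10.1%, 10.3% and 8.00%, and the muscle miRNA miR-1a-3p took 30.8%, 33.7% and 34.1%. By mean share miR-1a-3p went from rank 194 to rank 1. The composition also became less dominated by a few names. The 5 leading names of each state took 80.8 ± 3.04% of undifferentiated and 63.4 ± 1.74% of differentiated reads (SD, n = 3), and the 10 leading names 89.5 ± 1.23% and 76.9 ± 0.552%. Below these, miR-378a-3p rose from rank 19 to rank 6, and miR-183-5p fell from rank 8 to rank 21.

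**Figure D1:**
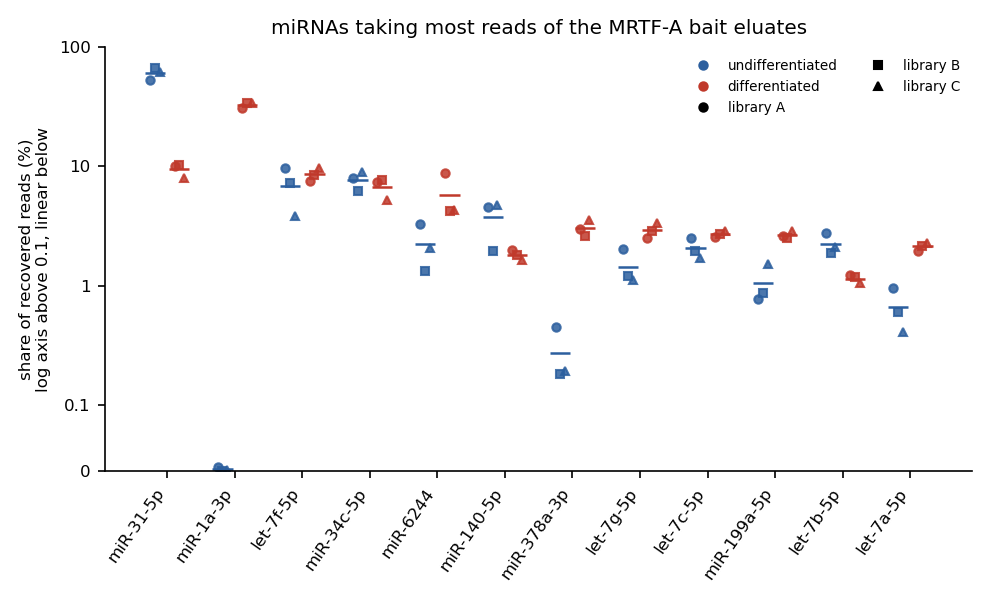
Share of recovered reads (percent, log axis above 0.1 and linear below) of the 12 names with the highest mean share in either state, in each MRTF-A eluate library (points; horizontal lines are means over 3 libraries). miR-31-5p sits at 52.8% to 66.5% in undifferentiated and 8.00% to 10.3% in differentiated libraries, while miR-1a-3p sits near 0 and at 30.8% to 34.1%.

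Over all 187 names tested, 61 were higher in differentiated cells (32.6%) and 39 were lower (20.9%), and the median difference was 0.35. All 100 called names (53.5%) also had groups that did not overlap. Counting by overlap alone, 68 names had every differentiated library above every undifferentiated one (36.4%) and 47 the reverse (25.1%). Of the 100 called names, 88 were called the same way under each of 5 other scalings or tests, and 0 changed sign under any of them. The split depended on what carried the scaling. With libraries scaled to their totals without the reads of miR-1a-3p and miR-31-5p, an alternative chosen after seeing the data, 47 names were higher and 48 lower and the median was 0.049, so that 49.5% of calls were rises against 61% as deposited. Directions below are relative to the deposited scaling.

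The 6 tested names of the myomiR list all rose, against 32.6% of all names, with a median difference of 4.95 against 0.35. They include miR-486-5p, which is also on the blood marker list, and miR-3107-5p. The reads of these names were nearly equal, so both count 1 signal. miR-1a-3p, which restrains proliferation of muscle precursors, was at 554751, 612195 and 537132 in differentiated and 92.0, 16.6 and 25.2 in undifferentiated libraries, where 10 reads were counted in all. The groups were far apart, and the difference was 13.60 ± 0.47 (SE, adjusted p = 5.30e-07). miR-133a-3p, a muscle miRNA made with miR-1 from shared transcripts, was at 11523, 12507 and 18319.6 against 0, 0 and 63.0. Its 5 undifferentiated reads were all in library C, and it differed by 9.48 ± 0.75 (SE, adjusted p = 8.02e-05). miR-206-3p, a skeletal muscle miRNA of the miR-1 seed family, had 18141, 19543 and 19554 against 1717, 432 and 353. Undifferentiated library A was its highest of that state, and the rise was 4.87 ± 0.55 (SE, adjusted p = 0.000362).

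miR-133b-3p, encoded beside miR-206-3p, was at 344, 317 and 529.7 and rested on 1 undifferentiated read, in library B. The ratio of pooled signal was 101, with a 95% exact interval of 18.04 to 4018 that covers counting error only. miR-133a-5p, the other arm of the miR-133a hairpin, was at 166, 167 and 180.0 with 0 undifferentiated reads, at least 4.71-fold higher when 3 reads are allowed per undifferentiated library. Both arms thus rose, the 3p arm at a far higher level. Of the remaining myomiR names in the table, miR-1b-3p had 9 reads, all in differentiated eluates, and was not tested. Also too scarce in the eluates to be tested were miR-499-5p and miR-208b-3p, with 2 and 0 differentiated reads. In differentiated input they had 291 and 61 reads, and they rose there by 4.32 and 2.30. The rise of every tested myomiR thus leaves out these names, which the bait hardly recovered.

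miR-1b-5p was at 4338, 4867 and 5637 in differentiated libraries and had 0 reads in undifferentiated ones, at least 137-fold higher. Its hairpin, Mir1b, is annotated on the strand opposite to Mir1a-2 at the same place on chromosome 18 (GRCm38). The sources used here do not say that counting used the strand, so it is not known whether reads counted as miR-1b-5p came from the opposite hairpin. miR-1b-5p reads amounted to 0.782%, 0.795% and 1.05% of those of miR-1a-3p in the differentiated eluates. In differentiated input the shares were 0.673%, 0.933% and 0.814%, which overlap the range in the eluate. In the differentiated MS2 control they were higher, at 3.38%, 3.47% and 3.98%, from 5, 7 and 8 reads of miR-1b-5p. Of 32 such opposite hairpin pairs in the annotation, 4 had tested names on both strands.

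**Figure D2:**
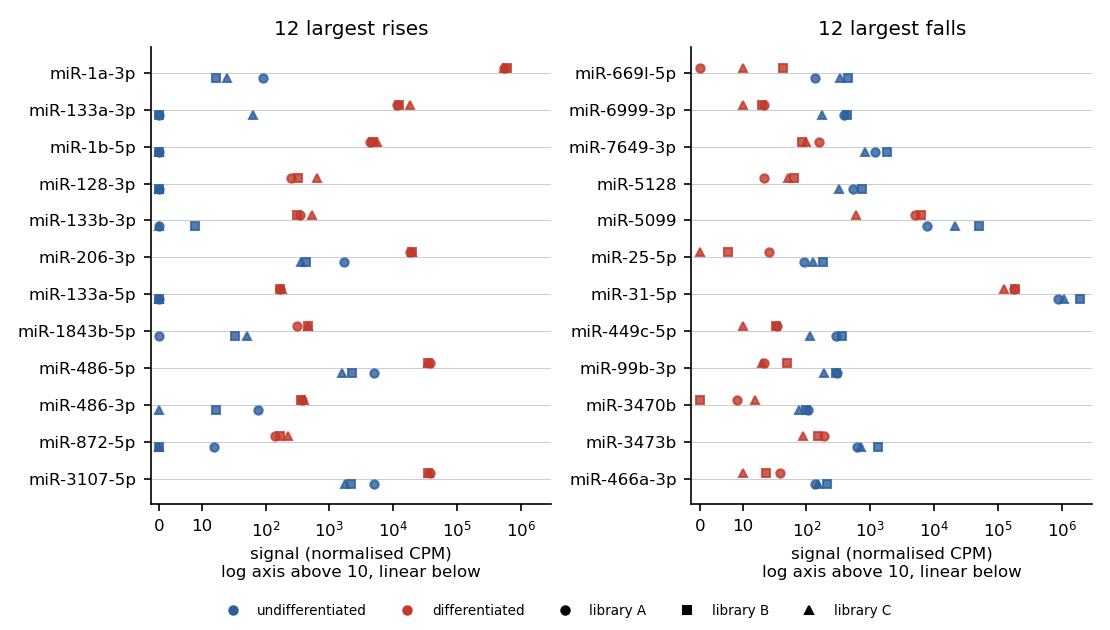
Signal (normalised read counts, log axis above 10 and linear below) in each MRTF-A eluate library of the 12 largest rises (left) and 12 largest falls (right) among called names with a mean of at least 50 units in the higher group. Each point is 1 library, and in every row the red differentiated points and blue undifferentiated points do not overlap.

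All 5 tested miRNAs of the candidate list (miR-1a-3p, miR-206-3p, miR-486-5p, miR-3107-5p and miR-24-3p), chosen in the study from these samples and so no independent evidence, also rose. miR-486-5p, a muscle-enriched miRNA, was at 37410.3, 35002 and 35657 against 5044, 2285 and 1550.2, a difference of 3.78 ± 0.42 (SE, adjusted p = 0.000362). miR-3107-5p had nearly the same values, 37144, 35058 and 36161 against 5090.1, 2209.8 and 1777. Its hairpin lies opposite that of miR-486 (chr8:23142573-23142662 on the minus and chr8:23142555-23142682 on the plus strand), and its reads were 99.3% to 101% of those of miR-486-5p in differentiated and 96.7% to 115% in undifferentiated eluates. The rise of miR-3107-5p is therefore no evidence apart from that of miR-486-5p. The other arm, miR-486-3p, rose as well, by 3.76 ± 0.72. miR-24-3p, which slows the cell cycle and rises in differentiating muscle, was at 14003, 14216 and 16643 against 11161, 7369 and 6453. Its rise of 0.88 ± 0.27 (SE, adjusted p = 0.0279) was small and lost its call on leaving out any library other than undifferentiated A, with an adjusted p up to 0.0817.

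Beyond the myomiRs, 19 tested names belonged to a list of other miRNAs of muscle differentiation, of which 9 rose, 1 fell and 9 were not called, with a median of 0.83. Over all names tested 32.6% rose and 20.9% fell, with a median of 0.35. miR-378a-3p, which lies in the gene of the coactivator PGC-1β and promotes myogenesis, was at 54173, 47465 and 55900.1 against 7374, 5325 and 3390.3 and rose by 3.36 ± 0.32. miR-128-3p, known from brain and muscle, was at 249, 323 and 643 with 0 undifferentiated reads, at least 11.2-fold higher. miR-22-3p, a miRNA abundant in muscle, was at 10999, 11910.4 and 14339 against 1395, 1587 and 1789.7. The rise was 2.96 ± 0.23 (SE, adjusted p = 8.02e-05), and the libraries of each state were close to each other. miR-27b-3p, which represses Pax3, rose by 0.83 ± 0.25, and its paralog miR-27a-3p, with the same seed, was at 579.8, 566 and 658 against 567, 980.3 and 731 and was not called.

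The 4 miR-181 members share the seed ACAUUCA, and 3 of them rose, against 32.6% of all names. miR-181a-5p, which targets the differentiation repressor Hox-A11, was at 3549, 3868 and 3657 against 429, 357 and 302, a rise of 3.32 ± 0.23 (SE, adjusted p = 6.21e-05). miR-181b-5p, from the same transcripts, rose by 1.31 ± 0.24, and miR-181c-5p by 1.04 ± 0.31. miR-181d-5p was at 231, 247 and 273 against 322, 274 and 277, just below the undifferentiated libraries, with a difference of -0.21 ± 0.26 (SE, adjusted p = 0.533). Members with 1 seed thus spanned −0.21 to 3.32. The miR-181c and miR-181d hairpins are neighbours on chromosome 8, in an intron of Nanos3.

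Several low miRNAs with no listed muscle role were among the largest rises. miR-1843b-5p was at 309.5, 466 and 458 against 0, 33.2 and 50.4, a difference of 3.80 ± 0.66 (SE, adjusted p = 0.00251). miR-872-5p was at 139.5, 169.9 and 221 and rested on 1 undifferentiated read, giving a ratio of 46.1 with a 95% exact interval of 8.13 to 1836. These 2 names held 300 and 126 differentiated reads, so their depth was modest. Other rises included miR-378c (3.69 ± 0.82), a relative of miR-378a, and miR-1839-5p (2.87 ± 0.53). Also higher were miR-146b-5p, an inducible regulator of inflammatory signalling, at 3.41 ± 0.63, and miR-210-3p, a hypoxia-responsive miRNA, at 1.92 ± 0.35.

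Among the falls, miR-31-5p carried by far the most reads. It was at 181537, 186715 and 126062 in differentiated and 867195, 1949000 and 1093390 in undifferentiated libraries, a fall of -2.92 ± 0.40 (SE, adjusted p = 0.000818). Every undifferentiated library was far above every differentiated one. The other falls of the 12 largest, miR-5099 aside, were of low miRNAs with mean undifferentiated signals of 94.2 to 1298 units. miR-669l-5p was at 0, 43.3 and 10.3 against 138, 457 and 340.3, with 15 and 91 reads in all, and differed by -3.71 ± 0.70 (SE, adjusted p = 0.00337). miR-6999-3p, from an intron of Dgkz, was at 21.8, 20.0 and 10.3 against 383, 440.3 and 176 (-3.58 ± 0.44). In both, every differentiated library was well under every undifferentiated one.

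miR-7649-3p was at 157, 86.6 and 97.7 against 1181, 1869 and 844, a fall of -3.37 ± 0.38 (SE, adjusted p = 0.000362). miR-5128, from an intron of Strbp, was at 21.8, 63.3 and 51.4 against 537, 739 and 328 and fell by 3.31 on the log2 scale. Both held 81 and 34 differentiated reads. miR-3470b, miR-3473b and miR-466a-3p, with differences of -2.62 ± 0.46, -2.52 ± 0.41 and -2.43 ± 0.43, fell too, and other hairpins of these numbered series have similar sequences between which counting may split reads. miR-5099 had the weakest support of the 12. It was at 5088, 6187 and 597 against 7865, 50676 and 21690.4, with an adjusted p of 0.0365 that rose to 0.127 without undifferentiated library B, and it was not called either without differentiated A or C or undifferentiated C.

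Some of the most abundant miRNAs on the bait did not pass the test. let-7f-5p, of the growth-restraining let-7 family, was at 134901, 154599 and 153840 against 157439, 210370 and 67756. Undifferentiated libraries lay on both sides of the differentiated ones, and the difference of 0.17 ± 0.44 (SE, adjusted p = 0.749) turned to −0.30 without undifferentiated library C and to −0.14 with totals that leave out miR-1a-3p and miR-31-5p. miR-34c-5p, a p53-responsive miRNA, was at 131854, 139437 and 82526 against 130364, 180405 and 160340, with overlapping groups and a difference of -0.44 ± 0.32 (SE, adjusted p = 0.288). miR-6244 was at 157262, 75983 and 68105 against 54243, 38538 and 36915, where differentiated library A stood above B and C. Its rise of 1.13 ± 0.38 (SE, adjusted p = 0.0365) was not called without that library (adjusted p = 0.101), nor without differentiated B or undifferentiated B or C. miR-6244 took on average 5.74% of differentiated and 2.23% of undifferentiated MRTF-A eluate reads. Its mean shares were higher in the MS2 control, 40.7% and 28.6%, and in input, 9.65% and 5.77%. miR-140-5p, a cartilage-enriched miRNA, fell from 75186, 57479 and 84317 to 35479, 32873 and 25782 (-1.20 ± 0.27), and its other arm miR-140-3p fell by a like amount, -1.30 ± 0.36.

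Families of proliferating cells fell or were not called. Of 5 tested names of miR-17-92 and its paralogs, an oncogenic cluster driven by MYC and E2F, 3 fell and 0 rose, against 20.9% falls among all names, with a median of −1.73. miR-92a-3p was at 637, 776 and 684 against 2652, 2501 and 2848, a fall of -1.92 ± 0.22 (SE, adjusted p = 0.000362). Both arms of miR-25, from the Mcm7 cluster, fell, the 5p arm by -2.93 ± 0.55 and the 3p arm by -1.79 ± 0.52. miR-93-5p of the same cluster was at 118, 53.3 and 77.1 against 46.0, 141 and 164 and was not called. In a list of 5 tested names linked to proliferation, 3 fell (miR-31-5p, miR-221-3p and miR-21a-5p). miR-21a-5p, widely raised in growing cells, went from 5795, 5092 and 5016 to 2237, 2235 and 1980.1 (-1.30 ± 0.21). In the miR-130/miR-301 family 2 of 4 fell, with miR-130b-3p at 519, 539.7 and 442 against 935, 2343 and 1941, while miR-130a-3p, with the same seed, was at 7668 ± 184 against 4833 ± 1329.9 (SD, n = 3) and was not called (adjusted p = 0.0580).

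The miR-34/miR-449 family, whose members share the seed GGCAGUG where a sequence was found, held falls at 1 locus. miR-449a-5p and miR-449c-5p, both from the intron of Cdc20b, fell. miR-449a-5p was at 174, 93.3 and 66.9 against 429, 573 and 567 (-2.22 ± 0.38), and miR-449c-5p at 34.9, 33.3 and 10.3 against 291, 357 and 113 (-2.81 ± 0.54). miR-34a-5p was at 2376, 2439 and 1682 against 1334, 2808 and 2054, with a difference of 0.11 ± 0.33 (SE, adjusted p = 0.781). miR-34b-5p and miR-34c-5p were not called either, so 2 of 5 fell, against 20.9% of all names, with a median of −0.44. miR-449a-5p had 1 read in the 6 inputs together, against 142 in undifferentiated and 81 in differentiated eluates.

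**Figure D3:**
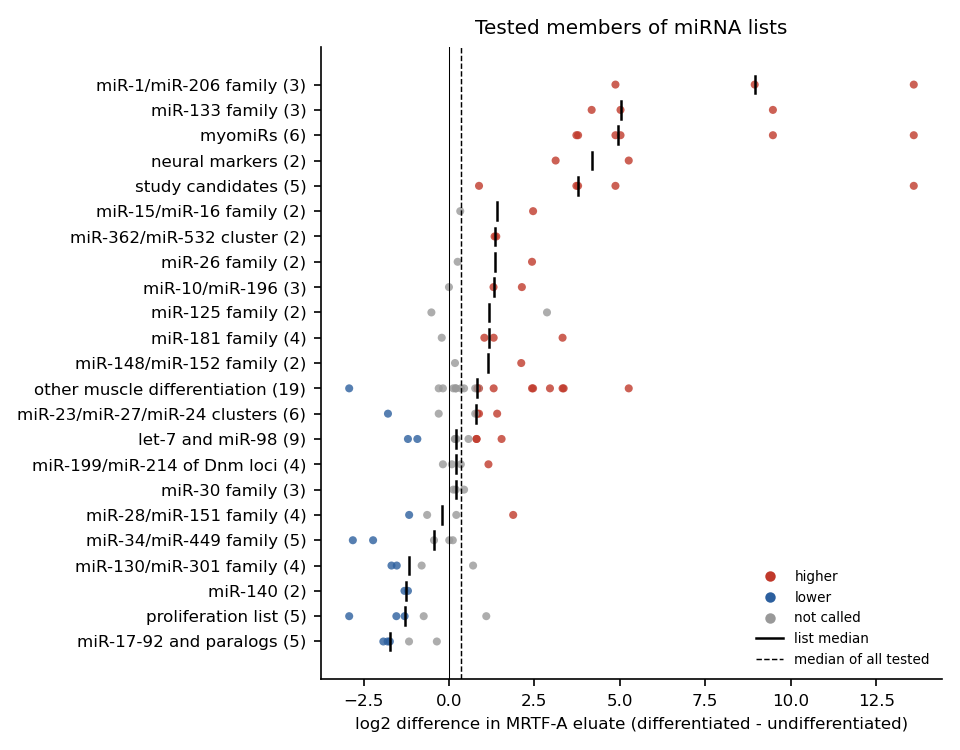
Log2 difference in MRTF-A eluate signal of each tested member (points) of the miRNA lists with at least 2 tested members, whose number is in brackets. Black ticks are list medians and the dashed line is the median of all 187 names, 0.35. The miR-1/miR-206 and miR-133 families lie wholly to the right, the miR-140 and miR-17-92 lists to the left, and most other lists straddle the dashed line.

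Other families moved in part, and their counts stand beside 32.6% rises and 20.9% falls among all names. In the miR-23/27/24 clusters 3 of 6 tested names rose and 1, miR-27a-5p, fell (-1.78 ± 0.29), with a median of 0.80. miR-196a-5p and miR-196b-5p, from the Hox clusters, rose by 1.30 ± 0.25 and 2.13 ± 0.28, whereas miR-615-3p of the Hoxc cluster stayed at 2249.6, 2442 and 2356 against 1916, 2650.1 and 2546 (adjusted p = 0.999). miR-199a-5p, from an antisense transcript of a dynamin gene, rose by 1.16 ± 0.33, 1 of 4 tested names of those loci. The names miR-199a-3p and miR-199b-3p have 1 mature sequence and count as 1 molecule, and neither was called. The 3 tested miR-30 names had adjusted p of 0.208 to 0.856. In the miR-28/miR-151 family 1 rose and 1 fell of 4, and its median of −0.21 became 0.029 with library totals.

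The let-7 arms differed from each other. This pattern was picked out after its values were seen, and is given as a description. All 5 tested 3p names of let-7 rose, with a median of 1.63, while of 10 names of the 5p strand (miR-98-5p and let-7j included) 3 rose, 2 fell and 5 were not called, with a median of 0.20. Over all names tested 32.6% rose and 20.9% fell, with a median of 0.35. Under the 5 other scalings and tests, let-7b-3p, let-7c-2-3p, let-7d-5p and let-7g-5p were called the same way by 4, and let-7i-5p by 3. let-7a-1-3p and let-7c-2-3p have 1 mature sequence, so 4 molecules stand behind the 5 names, and 8 of 11 let-7 3p names had any read. let-7d-3p was at 972, 883 and 1075 against 153, 332 and 37.8, a rise of 2.83 ± 0.65 (SE, adjusted p = 0.00812). Its groups were well apart, although undifferentiated libraries spanned a wide range. let-7b was the only hairpin of 27 with both arms tested whose arms were called in opposite ways. let-7b-3p was at 440.3, 496 and 535 against 153, 357 and 189 (1.13 ± 0.36), and let-7b-5p, with far more reads, at 21986, 21249 and 16437 against 45458, 54547 and 37583 (-1.20 ± 0.26).

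In differentiated input 4 of the same 5 3p names were called lower, with a median of −1.42 over the 5, and 8 of the 10 5p names, with a median of −1.28. Not called there were let-7d-3p (adjusted p = 0.134), let-7a-5p (0.0910) and let-7d-5p (0.0583). With the deposited scaling 46.3% of all 313 names tested in input were lower, and the median over the 313 was −0.64. Size factors by the TMM method gave 90 names lower and a median of −0.080. In the eluate let-7a-5p rose from 15776, 17587 and 7247 to 35392, 39153 and 35729 (1.54 ± 0.36). let-7i-5p fell from 6317, 12428 and 6213 to 3679.6, 3785 and 5107 (-0.92 ± 0.33). Across the 9 tested names with the seed GAGGUAG, differences thus ran from −1.20 to 1.54, and this was the only one of 21 seed groups with calls in both directions.

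**Figure D4:**
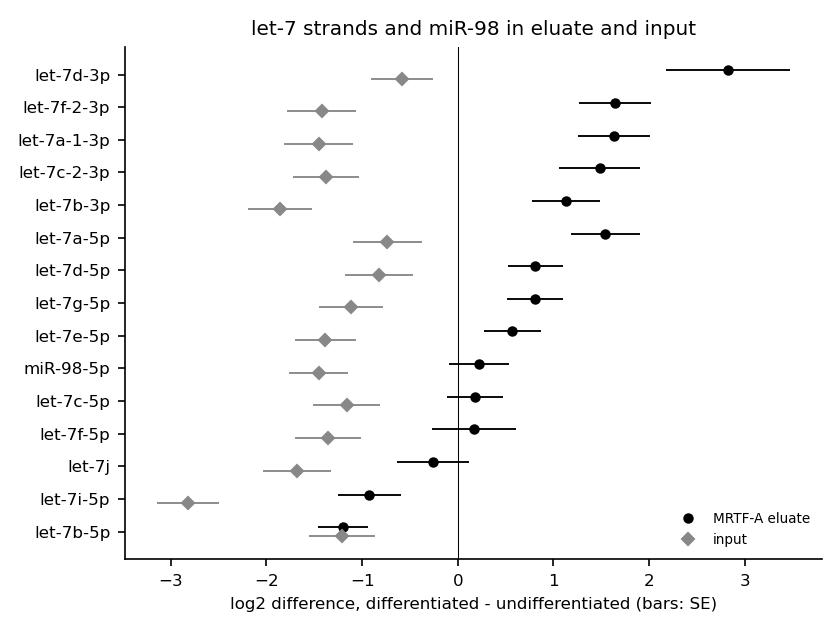
Log2 difference between states (points, bars are standard errors) of each tested let-7 name and miR-98-5p in the MRTF-A eluate (black circles) and in input (grey diamonds). With the deposited scaling, all 5 names of the 3p strand lie right of 0 in the eluate and left of it in input. Names of the 5p strand run from −1.20 to 1.54 in the eluate.

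Of the 27 hairpin pairs, 9 had both arms called the same way, 11 had 1 arm called, and 6 had neither. The differences of both arms had opposite signs in 6 pairs, let-7b included. The 2 miR-125b hairpins differed in their 3p arms. miR-125b-2-3p was at 1155, 1163 and 1311 against 659, 324 and 151 (1.88 ± 0.49), whereas miR-125b-1-3p was at 649.6, 653 and 453 against 2438, 3522 and 3189 (-2.37 ± 0.27). Their shared 5p product, miR-125b-5p, was at 65.4, 53.3 and 66.9 against 46.0, 99.7 and 164 and was not called. Mature loci on 1 strand within 10000 bases formed 19 clusters, of which 16 held calls in 1 direction only (7 of them a single call) and 2, those of let-7b and let-7c-2 and of miR-23a, miR-27a and miR-24-2, held both. A name with more than 1 locus counts in each of its clusters, as miR-181a-5p and miR-181b-5p do on chromosomes 1 and 2.

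Part of the change in the eluate was seen in the lysate too. Among 313 names tested in input, 195 were called (62.3%), 50 higher (16.0%) and 145 lower (46.3%) after differentiation. For the 152 names tested in both kinds of library, the changes correlated across names at a Pearson r of 0.848 and a Spearman rho of 0.745. These points share the cell states and the scaling, but not libraries, and miRNAs are not independent replicates. Of names called higher in the eluate, 22 were also higher in input, 9 were lower and 25 were not called. Among eluate falls, 25 were lower in input, 2 were not called and 0 were higher. The median difference was 0.41 in the eluate and −0.93 in input for these names. These values depend on the scaling. Over all 313 names the input median was −0.64 as deposited and −0.080 with size factors by the TMM method, under which 90 names were lower. The median of the eluate change minus the input change, over 346 names, was 0.87 as deposited, −0.23 with RLE size factors and −0.46 with DESeq2.

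**Figure D5:**
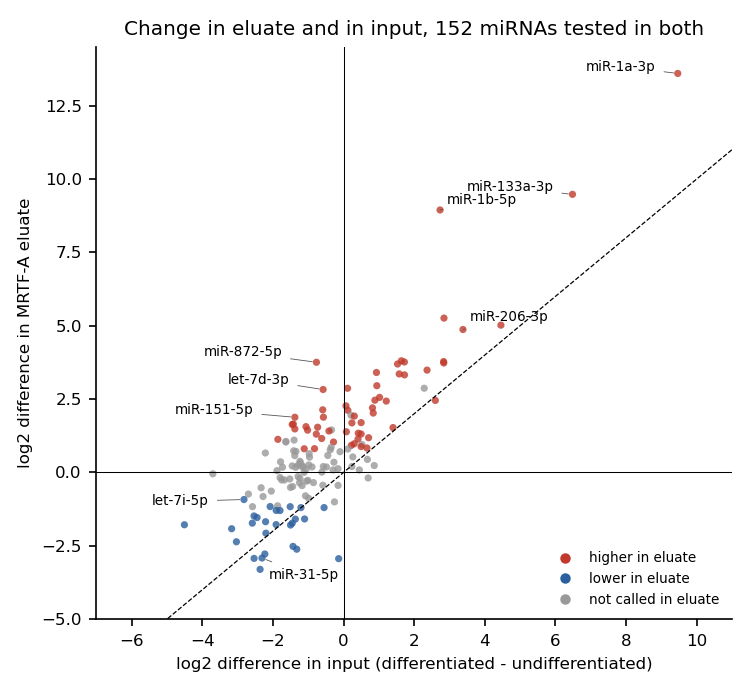
Log2 difference between differentiated and undifferentiated cells in input (x axis) and in MRTF-A eluates (y axis) for the 152 names tested in both, coloured by the call in the eluate. The dashed line marks equal change. With the deposited scaling, on which their place against the line depends, most points lie above it. miR-1a-3p, miR-133a-3p and miR-1b-5p lie farthest up, and miR-31-5p lies in the lower left.

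Levels in the 3 kinds of library set the scale of this difference. miR-1a-3p was at 7094, 6447 and 7665 in differentiated input and had 0 reads in undifferentiated input, so its differentiated eluate level was far above that of the lysate. In the differentiated MS2 control it was at 4915, 6935 and 5443. miR-133a-3p went the other way in level, at 30478, 43408 and 48008 in differentiated input and 11523, 12507 and 18319.6 in the eluate. miR-31-5p took 0.576 ± 0.0267% of undifferentiated input and 0.524 ± 0.142% of undifferentiated MS2 control reads (SD, n = 3), against 60.3 ± 6.95% with the MRTF-A bait. With the deposited scaling its fall was -2.31 in input and -2.92 in the eluate, and the difference between both falls was -0.61 (adjusted p = 0.308). By mean share of reads miR-31-5p went from 60.3% to 9.45% in the eluate and from 0.576% to 0.165% in input. miR-206-3p also rose in input, by 3.38, and its extra rise in the eluate, 1.49, did not pass the test (adjusted p = 0.105).

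The interaction of state and kind of library tested whether eluate and input changed differently. Of 346 names, 96 had a more positive change in the eluate (27.7%) and 22 a more negative one (6.36%), but these counts turned on the scaling. Only 59 of the 96 and 0 of the 22 were tested in eluate and input each, since the others had too few reads in one kind of library or in both. With size factors by the RLE method they were 26 and 56, with edgeR 55 and 3, and with DESeq2 10 and 36. Names called the same way under all 5 other scalings and tests numbered 10 and 2. The 10 were miR-7a-5p, miR-872-5p, let-7f-1-3p, miR-125a-3p, let-7d-3p, miR-151-5p, let-7a-1-3p, let-7f-2-3p, let-7b-3p and miR-196b-5p, 5 of them let-7 3p names, and the 2 were miR-6236 and miR-7075-3p. Of these 12, miR-7a-5p, let-7f-1-3p, miR-6236 and miR-7075-3p had too few eluate reads to be tested there. miR-7a-5p had 15 and 10 reads in differentiated and undifferentiated eluates, against 20 and 2373 in input. miR-151-5p, from an intron of the focal adhesion kinase gene, rose in the eluate from 169, 83.1 and 126 to 471, 469.8 and 478 and went from 822, 617 and 958 to 327, 323 and 245 in input. The 2 changes were opposite, and their difference was 3.26 ± 0.43 (SE, adjusted p = 0.000183). miR-872-5p was at 149, 61.1 and 181 in undifferentiated and 78.9, 69.5 and 51.6 in differentiated input, so its eluate rise had no matching rise in the lysate (difference 4.52 ± 0.66, adjusted p = 0.00037). For miR-1a-3p the extra change of 4.13 became −0.48 with edgeR and −1.51 with DESeq2, and with 0 reads in undifferentiated input it has no firm value.

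A like interaction set the bait against the MS2 control, whose libraries held only 15562 to 39695 reads. Of 169 names, 14 changed more positively with the MRTF-A bait (8.28%) and 8 more negatively (4.73%). Of these, 3 and 4 had 0 reads in every control library, so their values repeat the change in the eluate. Without 1 library at a time the counts were 4 to 19 and 0 to 17. Only 4 changed more positively without differentiated bait library B, differentiated control B or undifferentiated control C. Those that changed more negatively numbered 4, 0 and 1 without these, 4 without differentiated bait library C, 5 without undifferentiated bait B and 17 without undifferentiated bait A. Called the same way under all 5 other scalings and tests were miR-22-3p and let-7d-5p. miR-22-3p went from 2461, 4024 and 3309 to 4184, 6317 and 8097 in the control, a smaller rise than with the bait, and the difference was 2.05 ± 0.43 (SE, adjusted p = 0.0139). let-7d-5p was lower in the differentiated control, 1328, 1614 and 2627 against 4004, 4665 and 3245, and higher in the differentiated eluate, 10995, 11637 and 10543 against 6332, 8856 and 4462. That difference was 1.95 ± 0.46 (adjusted p = 0.0224).

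Seed matches were searched in the 3'UTR of mouse Mrtfa, chr15:81012281-81013284 on the minus strand (GRCm38, GENCODE vM21), 1004 bases long. The sequence of the bait itself is not given in the sources used here. A match is a run of letters and not a shown binding site. Of the 159 names with a sequence, 27 had 29 matches of 7 or 8 bases, and of those 27, 10 rose, 4 fell and 13 were not called, with a median difference of 0.58. Of the 132 names without a match, 37 rose, 27 fell and 68 were not called, with a median of 0.24. With a match 37.0% rose and 14.8% fell, against 29.6% and 19.5% of all 159. The 28 tested names without a sequence, miR-1a-3p among them, could not be searched. Of those, 14 rose (50%) and 8 fell (28.6%), more than the 32.6% and 20.9% of all 187 names. The shares with and without a match leave these names out. A set of 5 is shown with neighbouring bases, written as DNA 5′ to 3′ with the matched letters in capitals. They belong to a myomiR, to miR-128-3p, to the names with 8-base matches and to miR-31-5p.
miR-206-3p: tcacccACATTCCgtccca
miR-128-3p: caggctCACTGTGggcagt
miR-188-5p: gcagagAAGGGATAgagcca
miR-25-5p: cctgtcCTCCGCCAgcaact
miR-31-5p: cactgaCTTGCCA
The letters ACATTCC of miR-206-3p, at chr15:81012498-81012504, occur in 7.39% of the first 1004 bases of the 10145 annotated 3'UTRs at least that long, sense strand only. CACTGTG of miR-128-3p, at chr15:81013134-81013140, occurs in 15.0%. The 8 bases AAGGGATA of miR-188-5p, at chr15:81012361-81012368, and CTCCGCCA of miR-25-5p, at chr15:81012523-81012530, occur in 1.44% and 0.493%. miR-188-5p rose, from 153, 166 and 189 to 558, 369.8 and 417 (1.34 ± 0.28), and miR-25-5p fell. The match of miR-31-5p, CTTGCCA, ends at the last annotated base of the UTR (8.22% of UTRs), so it need not lie within the bait. A second miR-128-3p match, ACTGTGA, also holds the letters of miR-27a-3p and miR-27b-3p.

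Markers of other cell types were at 0 or low for the most part, and a few were called. Of 5 blood markers in the table, 4 (all but miR-486-5p) had 0 reads in the 6 eluates. Epithelial markers summed to 3.33 to 17.4 units in differentiated and 8.31 to 30.7 in undifferentiated libraries, with 5 and 7 of 8 at 0. Neural markers summed to 501 to 905 and 164 to 276, and the 2 tested ones, miR-128-3p and miR-153-3p, rose. The table held 12 neural markers. In input 5 of them were tested, of which 1, miR-128-3p, was higher and 4 were lower after differentiation. Of all names tested, 32.6% rose in the eluate, and in input 16.0% were higher and 46.3% lower. miR-153-3p was at 135, 147 and 129 against 0, 0 and 37.8 (3.12 ± 0.64). Among 4 endothelial and smooth muscle markers, 3 were at 0 in both states and miR-143-3p went from 1319, 1179.7 and 1525 to 4019.6, 4604 and 4433 (1.70 ± 0.22). Their part in the results was not tested. Differentiated library C stood apart for a few names, picked out after their values were seen. miR-182-5p had 758, 1028 and 25 reads in differentiated libraries A, B and C, and miR-351-5p 184, 236 and 3. miR-221-5p had 758, 943 and 11 reads there. Differentiated input C was low for miR-182-5p (65 reads against 1190 and 1314) and for miR-351-5p (83 against 826 and 930). Without differentiated library C, 51 names rose and 34 fell.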

How the data were processed

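Small RNA of the 6 MRTF-A eluates was analysed with the 6 inputs and 6 MS2 controls as background. Per the submitters' processing notes, the tools were edgeR 3.18.1, featureCounts 1.4.6, Bowtie2 2.0.13 and cutadapt 1.4.2. The deposited signal is a read count that the authors scaled to an effective library size. In every library all values (100%) were whole multiples of a step within 0.01 read, and whole reads were recovered. The sources used here give no strand setting, filters or handling of multiply matching reads, which affects near-identical and opposite-strand miRNAs. The authors' deposited log2 ratios, p-values and FDR values were not used.

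For such a signal the plan named limma with a trend. On log2(signal + 10), where 10 is the pseudocount, limma 3.58.1 was run under R 4.3.3 for names kept by filterByExpr, with two-sided p-values adjusted by Benjamini-Hochberg. The 2 MRTF-A groups entered the fit between states, and 12 libraries each interaction. The edgeR 4.0.16 and DESeq2 1.42.0 tests on recovered reads, other scalings, pseudocounts of 1 and 50, no filter, a block and leaving out each library were alternatives. The fits were tested on simulated data. Bounds against 0 reads allow 3 reads per library, and 95% exact intervals for 1 read are on pooled reads. Bounds and intervals cover counting error only. Libraries of a state differed beyond sampling noise, with chi-square over its degrees of freedom at 51.0 to 80.7 for each pair.

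Named miRNAs were the 12 largest rises and 12 largest falls among those called, with a mean of at least 50 units in the higher group and no overlap, the 5 most abundant of each state, the myomiR and candidate lists, members of other lists with the highest signal, and, among names that met the same conditions or were among the most abundant, the 5 largest each way per interaction. Other names (such as let-7 and miR-125b arms, miR-146b-5p, miR-210-3p and those low in library C) were chosen after their values were seen. The libraries, lists and tests were chosen with earlier results of these data known. The 3'UTR was the longest annotated for Mrtfa in GENCODE vM21. Tables, sites and figures were made with Python 3.11.15, numpy 2.4.6, pandas 2.3.3 and matplotlib 3.10.9.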

Additional observations from a re-analysis of the deposited data

Results flagged for a closer look

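The changes listed here differed between the MRTF-A eluate and another kind of library by a test of the difference itself (limma interaction, adjusted p under 0.05), and are the 5 largest each way among miRNAs that were called in the eluate comparison with a mean of at least 50 units and no overlap, or were among the 5 most abundant of a state. Against input, the change in the eluate was more positive for miR-1b-5p (6.21 ± 0.41, SE), miR-872-5p (4.52 ± 0.66), miR-1a-3p (4.13 ± 0.55), let-7d-3p (3.41 ± 0.75) and miR-151-5p (3.26 ± 0.43). It was more negative for miR-669l-5p (−3.71 ± 0.75), miR-7649-3p (−3.34 ± 0.52), miR-6999-3p (−3.27 ± 0.51), miR-466a-3p (−2.51 ± 0.50) and miR-466p-3p (−2.15 ± 0.38). The last 5 had at most 3 reads in any input library (miR-669l-5p had 0 in all), so their values in effect repeat the falls in the eluate. Of the 10, miR-872-5p, let-7d-3p and miR-151-5p were called the same way under all 5 other scalings and tests. miR-1a-3p and miR-1b-5p had 0 reads in undifferentiated input, so their values depend on the pseudocount and are no bound.

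Against the MS2 control, the change was more positive for miR-1a-3p (5.41 ± 0.99), miR-1b-5p (4.52 ± 0.55), let-7d-3p (4.27 ± 1.29), miR-1839-5p (3.78 ± 0.92) and miR-378c (3.69 ± 0.93). It was more negative for miR-301b-3p (−2.87 ± 0.81), miR-31-5p (−2.35 ± 0.58), miR-466p-3p (−2.23 ± 0.43), miR-449a-5p (−2.22 ± 0.57) and miR-671-5p (−1.99 ± 0.55). None of these 10 was called the same way under all 5 other scalings and tests. miR-378c, miR-466p-3p, miR-449a-5p and miR-671-5p had 0 reads in every control library, so their values repeat the change in the MRTF-A eluate. miR-1839-5p and miR-301b-3p had at most 1 read in any control library, and let-7d-3p at most 6. The causes were not tested.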

How the results depend on the processing

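The counts of eluate rises (61) and falls (39) stayed within 1.5 times under every alternative except fitting the 12 eluates together, which gave 40 and 25. Leaving out each library gave 42 to 72 rises and 34 to 52 falls, and 39 rises and 30 falls were called without any one library. The difference of let-7f-5p (0.17) was −0.14 with totals without miR-1a-3p and miR-31-5p, and −0.30 to 0.51 on leaving out a library. Without the reads of miR-31-5p, miR-1a-3p took 36.3% of differentiated reads. In input (50 higher, 145 lower) TMM gave 88 and 90, RLE 89 and 94, edgeR 85 and 96, and DESeq2 83 higher. For eluate minus input (96 higher, 22 lower), a pseudocount of 1 gave 9 lower, no filter 63 higher, RLE 26 and 56, edgeR 55 and 3, DESeq2 10 and 36, and totals without both miRNAs 43 and 35. There miR-1a-3p was −0.48 with edgeR and −1.51 with DESeq2. For bait minus MS2 (14 higher, 8 lower, and 50 either way at an unadjusted limma p under 0.05), pseudocounts of 1 and 50 gave 7 and 4, and 22 and 16, no filter 2 and 0, library totals 9 and 5, RLE 21 lower, edgeR 4 and 0, DESeq2 5 higher, totals without both miRNAs 7 higher, and leaving out a library 4 to 19 higher and 0 to 17 lower. The causes were not tested. With a replicate block by column suffix, 62 names rose and 39 fell. Deviations of libraries with the same suffix correlated at 0.0999, 0.0910 and 0.132, each highest with its own suffix. Those with different suffixes correlated at −0.140 to 0.0497. The labels do not pair libraries by suffix, and the main fit had no block. Whether the suffix pairs libraries was not tested. Depth limits the low names, since 1 undifferentiated read was worth up to 15.3 units.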

Other observations

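Among the 9 names higher in the differentiated eluate and lower in differentiated input were 5 of let-7 (let-7a-1-3p, let-7b-3p, let-7c-2-3p, let-7f-2-3p and let-7g-5p). The others were miR-151-5p, miR-196a-5p, miR-320-3p and miR-677-5p. let-7a-1-3p and let-7c-2-3p have 1 mature sequence and count as 1 molecule. The 152 names tested in both kinds of library held 5 let-7 names of the 3p strand and 10 of the 5p strand, miR-98-5p included. miR-320-3p, which is made without Drosha, differed by 1.56 in the eluate and −1.06 in input, and miR-677-5p by 1.44 and −1.02. The calls in input depend on the scaling, as fewer names were lower with other size factors.

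A read was seen only in differentiated eluates for 316 names and only in undifferentiated eluates for 160. Differentiated libraries were the deeper ones, except that undifferentiated B held more reads than differentiated C, and the part of depth in these counts was not tested.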
